A study of Mus musculus with 4 samples.

Results

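AOC3 and AOC3-LN are squamous carcinoma cell lines from the oral tumor and from a lymph node metastasis of the same mouse, mouse 3, and the expression of every gene in AOC3-LN was set against its expression in AOC3. RNA was sequenced from cultured cells of 4 lines, with 1 library per line, and these are 2 of the 4 libraries. AOC11 and AOC11-LN, the matching lines of mouse 11, are given beside them where they help to place a value. All lines came from C57BL/6 male mice that were 6 to 8 weeks old and whose buccal mucosa was painted with the carcinogen DMBA, a polycyclic hydrocarbon, on a cotton swab, for 28 weeks in mouse 3. Tumor cells were cultured, grown once as a tumor under the skin of the flank in C57BL/6 mice, freed of fibroblasts with an isolation kit and cultured again, so both lines had been through a second host and neither is fresh tumor. No line received a drug or carried an engineered allele. Each line is a single derivation from 1 mouse with no replicate, so the differences below describe these 2 libraries, no test was possible and no p-value is given.

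Expression was measured in FPKM, the fragments assigned to a gene per kilobase of transcript and scaled to the number of mapped fragments. A difference is log2(FPKM + 1) in AOC3-LN minus the same in AOC3, and the added 1 shrinks the differences of genes with low values. Genes were kept when they reached 1 FPKM in either line and had a transcript of 200 bases or longer, which left 12775 of 34721 entries, 10773 of them protein-coding. A gene is called higher or lower here when its difference was above 1 or below -1, a 2-fold change in FPKM + 1. The whole-number steps among low FPKM values of genes with a single transcript put the libraries at about 33500000 fragments in AOC3 and 28300000 in AOC3-LN. At those depths 72.4% and 73.0% of the low values lay within 0.1 of a whole number of fragments. Each depth, with 160 bases taken off the transcript length, was picked to bring these same values closest to whole numbers. The 20% expected by chance holds for a depth fixed beforehand, so these shares do not test the depth. Intervals quoted below for single-transcript genes are exact binomial 95% intervals on these inferred fragments and cover counting error only, not the spread between cultures.

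Squamous carcinoma cells of the oral mucosa keep the keratins and junctions of a stratified epithelium, and they also make chemokines, growth factors and proteases that act on surrounding cells. Interferons and NF-kB are the main routes by which such cells switch on inflammatory and antigen-presentation genes. Interferon signalling runs through STAT and IRF transcription factors, and NF-kB is released when its inhibitor proteins are degraded. In the mouse, lymphatic spread of oral carcinoma reaches the draining nodes of the neck.

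Both lines carried the markers of squamous epithelium. Epcam, an epithelial adhesion molecule, was at 518 FPKM in AOC3 and 509 FPKM in AOC3-LN, and Cdh1, which encodes E-cadherin, was at 144 and 158 FPKM. Krt5 was at 499 and 275 FPKM, and Krt17 at 547 and 468 FPKM. Trp63, the transcription factor of basal epithelium, was low in both, at 1.69 and 2.10 FPKM, and Dsg3 stayed under 1 FPKM. Markers of other cell types were near 0. The 10 fibroblast markers summed to 0.305 FPKM in AOC3 and 0.330 FPKM in AOC3-LN, and the 8 T cell markers to 0.844 and 0.101 FPKM. The 6 B cell markers summed to 0.564 and 0.329 FPKM, the 8 endothelial markers to 0.441 and 0.444 FPKM, and the 5 markers of lymph node stroma to 0.0380 and 0.0276 FPKM. The 4 general leukocyte markers summed to 0.758 and 0.799 FPKM, nearly all of it Coro1a, and the 5 skeletal muscle markers to 0.168 and 0.0901 FPKM. The 6 neutrophil markers summed to 1.45 and 1.87 FPKM, and the 7 dendritic cell markers to 1.36 and 0.917 FPKM, mostly Flt3. Of 9 macrophage markers, Cd68 was at 13.0 and 8.79 FPKM and Cd14 at 7.31 and 8.55 FPKM, while the defining markers Adgre1, Lyz2, C1qa and C1qb were listed at 0 in both lines. Col17a1, a hemidesmosome collagen, was at 0.346 and 2.44 FPKM. Most epithelial markers were thus well expressed in AOC3-LN, with Trp63, Dsg3 and Col17a1 low, and lymphocyte and node stroma markers were each under 1 FPKM.

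The 2 lines were close for most genes. The difference lay within 0.5 of 0 for 10664 genes, or 83.5% of those kept, and its median was -0.03. Beyond 2-fold, 140 genes were higher in AOC3-LN, which is 1.1% of genes kept, and 430 were lower, which is 3.37%. Lower genes therefore made up 75.4% of the 570 past the threshold. In such bulk libraries fewer cells expressing a gene and less RNA per cell cannot be told apart. That share depends on scaling. Quantile normalization over the 4 lines, which the study's methods name, put 186 genes higher and 346 lower, and the share of higher genes went from 24.6% to 35.0%. All 346 and 140 of the 186 were also past the threshold without it. The lower genes had a median of 7.01 FPKM in AOC3, and 175 of them were at 10 FPKM or more there. At the edge of the threshold, Kif21b (1.68 FPKM in AOC3, 0.337 in AOC3-LN) was just inside and Wnt9a (2.83 and 0.915 FPKM) just outside on the lower side. On the higher side Ccl27b (0.621 and 2.24 FPKM) was just inside and Arl5c (4.50 and 9.90 FPKM) just outside.

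**Figure D1:**
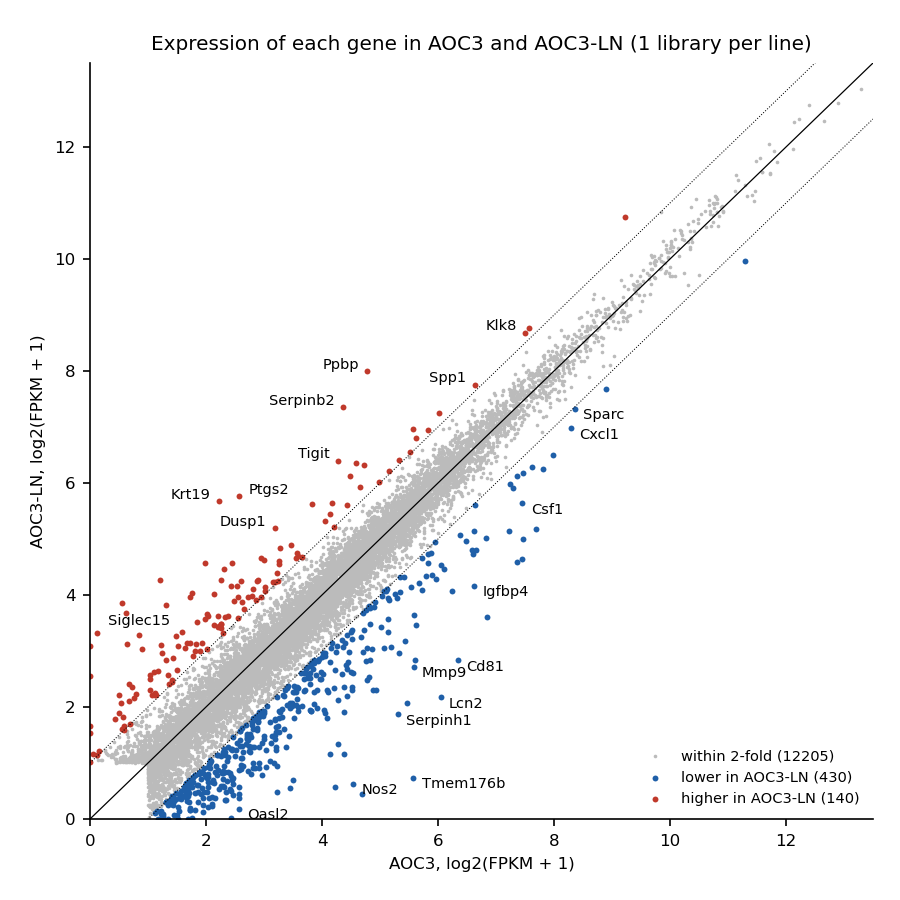
Each point is a gene, with log2(FPKM + 1) in AOC3 on the horizontal axis and in AOC3-LN on the vertical axis. The solid line marks equal values and the dotted lines a difference of 1 in either direction. Most points follow the line, the 430 lower genes (blue) spread far below it at low and middle expression, and the 140 higher genes (red) include Ppbp, Serpinb2, Krt19 and Ptgs2.

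The genes at the top of both libraries were the same kind in each line. Their highest entries included Eef1a1, a translation elongation factor, at 7601 FPKM in AOC3 and 7041 in AOC3-LN, Rpl41, a ribosomal protein, at 4764 and 5773 FPKM, and S100a6, a calcium-binding protein, at 4529 and 5584 FPKM. The mitochondrial transcript mt-Co1 was at 6437 and 5669 FPKM. None of these genes passed 2-fold.

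Among the 15 protein-coding genes furthest below AOC3, several encode inflammatory or secreted proteins. Tmem176b (chr6:48833818-48841496) was at 46.6 FPKM in AOC3 and 0.669 FPKM in AOC3-LN, and its neighbour Tmem176a (chr6:48840919-48847071) was at 24.9 and 0.357 FPKM. Both encode related membrane proteins, they overlap on opposite strands, and the counting strand is not stated, so their reads cannot be fully told apart. Nos2 (chr11:78920787-78960254), the inducible nitric oxide synthase, was at 22.3 FPKM in AOC3 and 0.551 FPKM in AOC3-LN, a difference of -3.91. Lcn2 (chr2:32384633-32388252), an iron-siderophore-binding acute-phase protein, was at 65.1 and 3.50 FPKM, a difference of -3.88. Ccl2 (chr11:82035571-82037453), the monocyte chemokine, was at 17.7 and 0.483 FPKM. Each of these genes was near or under 1 FPKM in AOC3-LN apart from Lcn2. Slpi, a secreted protease inhibitor of mucosa, was at 43.1 and 3.18 FPKM.

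Other genes of this group act at the cell surface or in the matrix. Cd81 (chr7:143052739-143067934), a tetraspanin, was at 80.1 FPKM in AOC3 and 6.13 FPKM in AOC3-LN, a difference of -3.51. It was the only one of 14 tetraspanins past 2-fold, and the relatives Cd9 (381 and 433 FPKM), Cd63 (537 and 557 FPKM) and Cd151 (79.9 and 76.3 FPKM) were near equal. Over all genes kept, 3.37% were lower and 1.1% higher past 2-fold, so 1 of 14 is no result about the family. Serpinh1 (chr7:99345376-99353239), the collagen chaperone HSP47, was at 38.7 and 2.65 FPKM. Ltbp2, a microfibril-associated protein, was at 19.7 and 1.24 FPKM, and Itgb5, the integrin beta-5 chain, at 47.4 and 6.14 FPKM. Mmp9 (chr2:164940780-164955850), a gelatinase, was at 46.8 and 5.60 FPKM. Cd34, best known as a marker of blood progenitors and vessels, was at 16.6 and 1.23 FPKM in these cells. Aim2, a cytosolic DNA sensor, was at 10.3 and 0.616 FPKM, and Unc93b1, which carries nucleic acid-sensing Toll-like receptors to endosomes, at 9.94 and 0.463 FPKM. Gxylt2, a xylosyltransferase, closed the group at 18.3 and 1.53 FPKM.

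Of the 15 protein-coding genes furthest above AOC3, Krt19 came first. Krt19 (chr11:100140810-100148665), a keratin of simple epithelia, was at 3.65 FPKM in AOC3 and 50.1 FPKM in AOC3-LN, a difference of 3.46. Ppbp (chr5:90768518-90770063), which encodes the platelet-type chemokine CXCL7, was at 26.4 and 256 FPKM, 9.68-fold (8.99 to 10.4). Ptgs2 (chr1:150100031-150108227), cyclooxygenase-2, was at 4.91 and 53.2 FPKM, a difference of 3.20. All 3 were well expressed in AOC3-LN and present at lower levels in AOC3. Serpinb2 (chr1:107511423-107535478), plasminogen activator inhibitor 2, was at 19.7 and 162 FPKM.

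Some genes of the higher group were close to absent in AOC3. Siglec15, a sialic acid-binding receptor with inhibitory activity on T cells, was at 0.0896 FPKM in AOC3, about 3 fragments, and 8.96 FPKM in AOC3-LN, a ratio of 100.0 with a wide counting interval of 33.8 to 487. Its neighbour Slc14a1, a urea transporter, was listed at 0 in AOC3 and at 7.49 FPKM in AOC3-LN. The osteoblast factor Sp7 was also listed at 0 in AOC3 and reached 1.03 FPKM in AOC3-LN, and no other protein-coding gene among those kept was at 0 in AOC3. In the other direction Smim22 was at 2.21 FPKM in AOC3 and Gm12216 at 1.54 FPKM, and both were listed at 0 in AOC3-LN.

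The rest of the higher group was mixed in role. Nkd2, an inhibitor of Wnt signalling, was at 0.529 and 11.9 FPKM, and Sema7a, a membrane-anchored semaphorin, at 2.96 and 22.7 FPKM. Ppp2r2c, a regulatory subunit of protein phosphatase 2A, was at 1.32 and 18.3 FPKM. Klk6, a secreted serine protease, was at 1.49 and 13.2 FPKM. Cpa4, a carboxypeptidase, was at 3.95 and 21.2 FPKM, 5.37-fold (4.77 to 6.05). Aqp8, a water channel, was at 0.564 and 7.78 FPKM, Npr3, the natriuretic peptide clearance receptor, at 0.791 and 8.80 FPKM, and Clip4, a CAP-Gly domain protein, at 2.32 and 14.7 FPKM. Prl2c2, a proliferin, was at 0.857 and 7.22 FPKM, and since close copies of it exist in the mouse genome its value is uncertain.

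**Figure D2:**
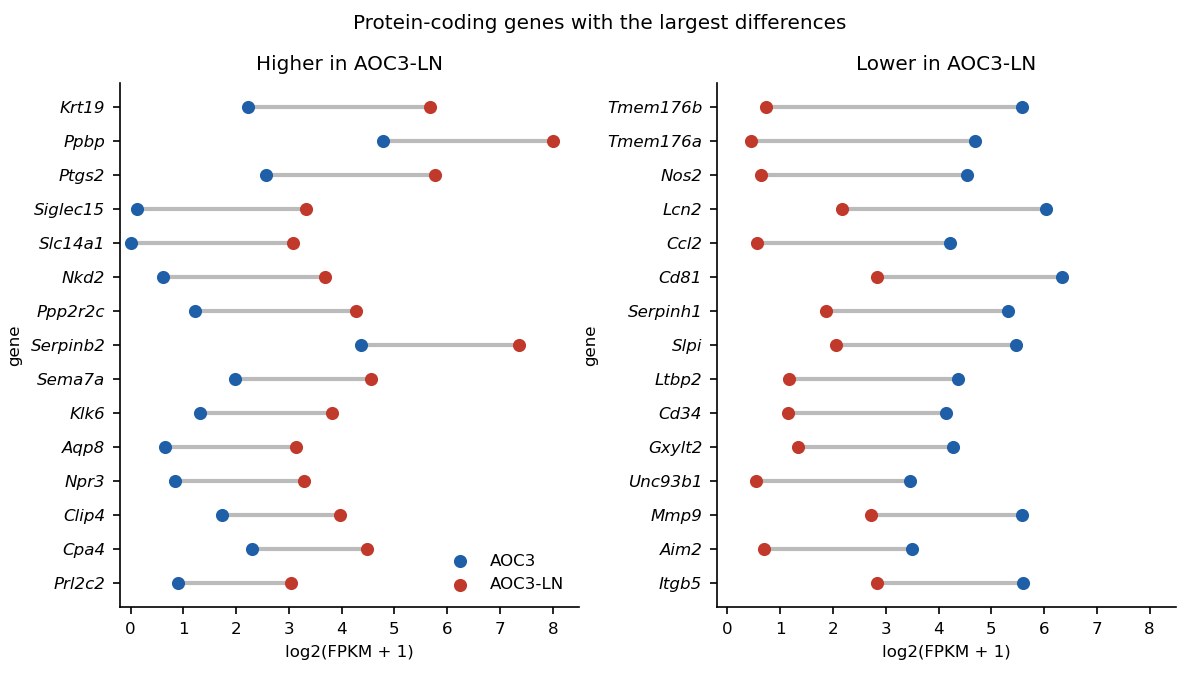
The 15 protein-coding genes that differed most on either side, with log2(FPKM + 1) on the horizontal axis, AOC3 in blue and AOC3-LN in red, 1 library each. In the right panel Tmem176b, Tmem176a, Nos2 and Ccl2 go from above 4 to below 1, and in the left panel Ppbp and Serpinb2 reach the highest values in AOC3-LN.

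The interferon response genes, which interferon-activated STAT and IRF factors induce, were mostly lower in AOC3-LN. Of 46 genes listed, 42 had a lower value in AOC3-LN, 1 a higher value and 3 equal values, many of them close to 0, and the median over all 46 was -0.51. Of the 22 that reached 1 FPKM, 12 passed 2-fold down and none up, against 3.37% and 1.1% of all genes kept. The median difference of the 22 was -1.12 against -0.03 over all genes kept. Of these, 11 reached 1 FPKM only in AOC3, so that the filter itself fixed their direction, and none only in AOC3-LN. The 11 at 1 FPKM or more in both lines were all lower, with a median of -0.87. The same limit holds for every list described here, since a member that was kept through 1 line alone had to differ. Every list was also chosen with earlier results of these data known, so its counts describe its members and test nothing. Oasl2 (chr5:114896936-114912234), an antiviral oligoadenylate synthetase-like protein, was at 4.95 FPKM in AOC3 and 0.138 FPKM in AOC3-LN. Isg15 (chr4:156199424-156200818), a ubiquitin-like modifier, was at 4.40 and 0.411 FPKM, about 88 and 7 fragments, so that AOC3-LN had 0.0934 times the AOC3 value (0.0368 to 0.202). Its gap was larger than counting error. Ifitm3, a membrane protein that blocks virus entry, was at 65.4 and 22.2 FPKM, and Bst2, which tethers budding virus, at 17.7 and 5.32 FPKM. Parp9 (4.37 and 0.706 FPKM) and Dtx3l (2.51 and 0.371 FPKM), which form an ADP-ribosylation and ubiquitin ligase complex, overlap on opposite strands and cannot be fully separated. Near them Parp14 was at 2.85 and 0.300 FPKM. The RNA sensors Ddx58 (RIG-I; 4.40 and 1.38 FPKM) and Ifih1 (MDA5; 2.06 and 0.482 FPKM) were also past 2-fold. Most of these genes were below 10 FPKM in both lines, so the group as a whole was at a low level even in AOC3. Oasl1 and Oasl2, and Ifitm2 and Ifitm3, are related genes whose sequences were not compared here, so their separate values may be less certain.

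The machinery upstream was lower in part. Of 26 interferon ligands, receptors and regulators, 6 passed 2-fold down and none up, against 3.37% and 1.1% of all genes kept. The median of the 26 was -0.46. Irf1 (chr11:53770014-53778374), an interferon-induced transcription factor, was at 68.1 FPKM in AOC3 and 21.1 FPKM in AOC3-LN, a difference of -1.65. Ikbke, a kinase that activates IRF3, was at 21.9 and 3.97 FPKM, and Tmem173, which encodes the DNA-sensing adaptor STING, at 2.87 and 0.0909 FPKM. The receptor chains Ifnar2 (26.0 and 12.4 FPKM) and Ifngr2 (7.27 and 3.06 FPKM) were just past 2-fold. Stat2 (6.72 and 3.59 FPKM) and Irf9 (2.23 and 1.25 FPKM) were lower without passing it. By contrast Ifnar1 (14.1 and 12.7 FPKM), Jak1 (36.8 and 33.9 FPKM) and Irf3 (28.9 and 28.3 FPKM) were near equal. Gbp2, an interferon-induced GTPase, was at 3.79 and 0.508 FPKM and was the 1 member of its family of 3 kept genes past 2-fold.

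The promoters of several of these genes hold the DNA elements through which the pathway acts. Promoters shown here were picked from genes past 2-fold down because they hold a match, so they do not stand for their lists. The windows below are the 250 bases before the RefSeq start in GRCm38.p6, in the direction of the gene, and capitals mark matches on either strand. The interferon-stimulated response element was searched as TTTC, any 2 bases, TTTC, and the gamma-activated site as TTCNNNGAA. In Bst2 the capitals run together because a match of each kind overlaps.
Isg15 (chr4:156200819-156201068, minus strand): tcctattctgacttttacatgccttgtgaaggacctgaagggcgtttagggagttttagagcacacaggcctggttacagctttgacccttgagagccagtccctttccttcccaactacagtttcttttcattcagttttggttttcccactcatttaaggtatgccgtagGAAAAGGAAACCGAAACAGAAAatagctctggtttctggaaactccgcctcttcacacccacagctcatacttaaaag
Bst2 (chr8:71537473-71537722, minus strand): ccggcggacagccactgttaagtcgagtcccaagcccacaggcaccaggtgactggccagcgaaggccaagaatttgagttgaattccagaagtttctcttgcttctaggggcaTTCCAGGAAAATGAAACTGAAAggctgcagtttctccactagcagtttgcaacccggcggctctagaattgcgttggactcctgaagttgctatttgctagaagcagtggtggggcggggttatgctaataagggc
Gbp2 (chr3:142620413-142620662, plus strand): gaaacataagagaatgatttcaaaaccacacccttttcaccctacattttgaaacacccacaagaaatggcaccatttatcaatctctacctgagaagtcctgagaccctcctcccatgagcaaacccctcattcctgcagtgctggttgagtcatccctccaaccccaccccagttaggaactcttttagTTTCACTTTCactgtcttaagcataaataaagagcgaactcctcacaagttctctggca
Irf1 (chr11:53769764-53770013, plus strand): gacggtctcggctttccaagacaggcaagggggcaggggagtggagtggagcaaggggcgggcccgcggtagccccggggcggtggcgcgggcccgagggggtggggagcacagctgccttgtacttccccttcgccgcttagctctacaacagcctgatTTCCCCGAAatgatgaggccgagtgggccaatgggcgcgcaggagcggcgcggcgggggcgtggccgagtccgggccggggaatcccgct
Psmb8 (chr17:34197945-34198194, plus strand): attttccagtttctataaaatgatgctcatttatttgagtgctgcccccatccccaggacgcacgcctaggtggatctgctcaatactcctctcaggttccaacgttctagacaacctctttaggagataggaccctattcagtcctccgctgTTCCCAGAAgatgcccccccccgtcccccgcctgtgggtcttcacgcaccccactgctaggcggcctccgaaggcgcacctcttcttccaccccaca

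The response element was in the windows of Isg15, Bst2 and Gbp2, and the gamma-activated site in those of Bst2, Irf1 and Psmb8. A window at another Irf1 start held neither element. In Isg15 the 3 overlapping matches span 78 to 57 bases before the start. Over all 27025 genes with a window, 3.46% held the response element and 8.13% the gamma-activated site. Of the genes kept, 8853 had a window, and 2.91% of these held the response element and 6.92% the gamma-activated site. Of 22 interferon response genes kept, 17 had a window and 4 of them (23.5%) held the response element. Oasl2, Oasl1, Parp12, Xaf1, Ddx58 and Ifih1 held neither element in these bases. The gamma-activated site was in 2 of the 17 (11.8%) and in 2 of 16 class I windows (12.5%), against 6.92% over genes kept. Among all lower genes with a window, 17 of 303 (5.61%) held the response element, and among higher genes 3 of 93 (3.23%). For the gamma-activated site these were 35 of 303 (11.55%) and 8 of 93 (8.60%). A match describes letters in the window and says nothing of binding.

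Antigen presentation on class I molecules, which displays peptides to CD8 T cells, was lower in its peptide-processing steps and near equal in its main heavy chains. Of 18 genes kept, 7 passed 2-fold down and none up, against 3.37% and 1.1% of all genes kept, and the median was -0.81. Psme1 (chr14:55578123-55581529) and Psme2, the proteasome activator subunits, were at 113 and 31.3 FPKM and at 88.8 and 30.4 FPKM. Psmb8, an immunoproteasome catalytic subunit, was at 1.84 FPKM in AOC3 and 0.0516 FPKM in AOC3-LN. Erap1, which trims peptides in the endoplasmic reticulum, was at 15.3 and 2.83 FPKM, and Tapbp, the loading factor tapasin, at 34.6 and 14.1 FPKM. Of the classical heavy chains, H2-K1 was at 424 and 385 FPKM and H2-D1 at 198 and 192 FPKM. B2m, their common light chain, was at 459 and 272 FPKM, a difference of -0.75 that did not reach 2-fold. The non-classical H2-T23 (15.1 and 6.40 FPKM) and H2-Q4 (5.06 and 0.863 FPKM) were past 2-fold, and since class I genes share sequence their values are less certain. The chaperones Calr (454 and 469 FPKM), Canx (183 and 186 FPKM) and Pdia3 (243 and 241 FPKM) were level.

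**Figure D3:**
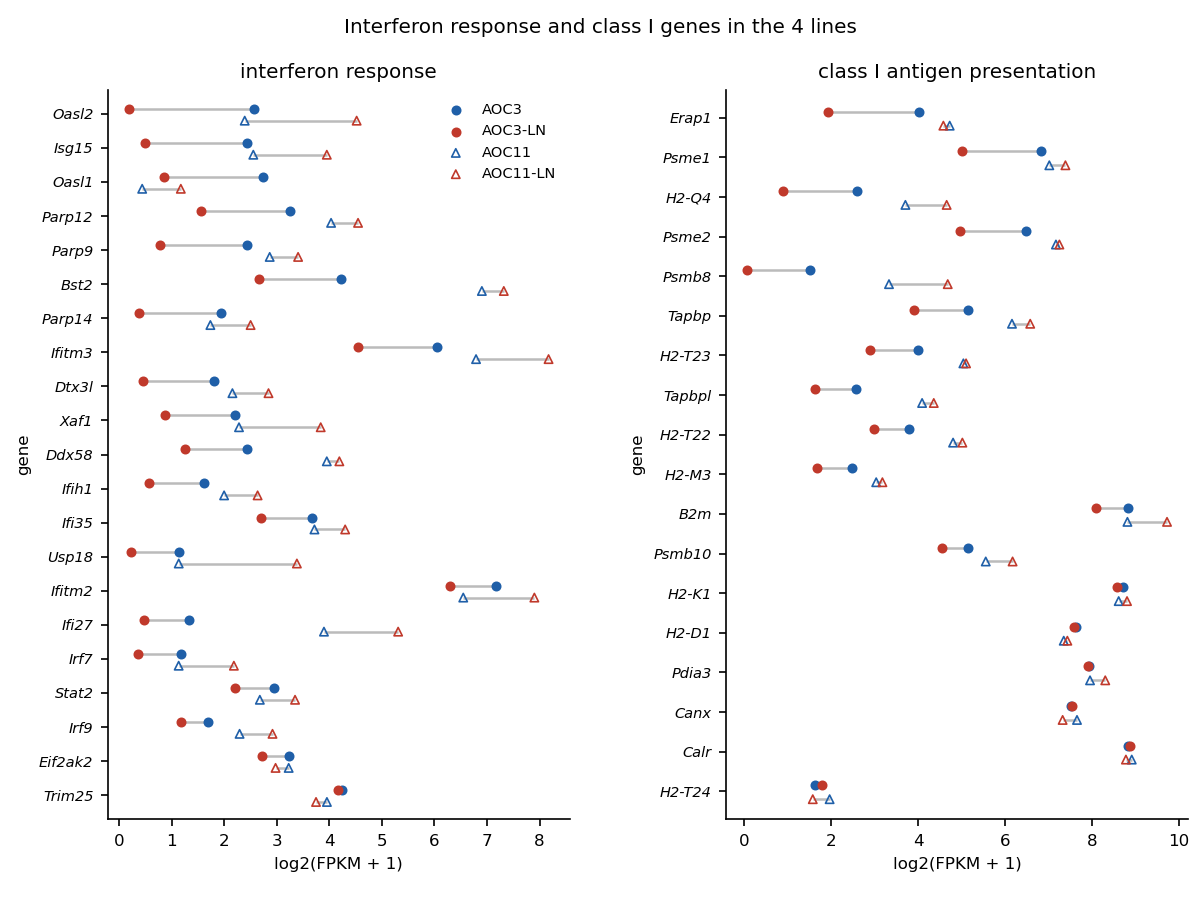
Genes of the interferon response, all but 1 of those kept (left), and of class I antigen presentation (right), with log2(FPKM + 1) on the horizontal axis, circles for mouse 3 and triangles for mouse 11, blue for the primary and red for the lymph node line. In mouse 3 the red circle lies left of the blue circle for every interferon response gene plotted, and in mouse 11 the red triangle lies to the right of the blue one for 19 of them, as for Oasl2, Usp18 and Ifitm3.

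These genes stood the other way round in mouse 11. Over the same 22 interferon response genes the median of AOC11-LN minus AOC11 was 0.68, with 8 genes past 2-fold up and none down. Over all genes kept, 4.39% were past 2-fold up and 1.59% down in that pair. Oasl2 was at 4.24 FPKM in AOC11 and 21.9 FPKM in AOC11-LN, Isg15 at 4.87 and 14.5 FPKM, and Ifitm3 at 110 and 287 FPKM. The values of AOC3 and AOC11 were alike for Oasl2 and Isg15, and the lymph node lines differed from them in opposite directions. With 1 library per line this contrast between mice was not tested.

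Ligands that other immune cells read were lower in part. Of 10 checkpoint and natural killer cell ligands kept, 2 passed 2-fold down, against 3.37% of all genes kept. They were the galectin Lgals9 (3.82 and 0.768 FPKM) and Nectin2 (39.6 and 15.6 FPKM). Cd47, the signal that restrains phagocytes, was at 26.2 and 13.0 FPKM and did not pass. Pvr, a poliovirus receptor relative that binds TIGIT and CD226, was at 30.2 and 46.6 FPKM.

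NF-kB target and acute-phase genes showed the same direction. Of 24 kept, 13 passed 2-fold down and none up, against 3.37% and 1.1% of all genes kept, and the median was -1.04. Over members at 1 FPKM or more in both lines the median was -0.44. This list was chosen with earlier results of these data known, so its count beside the share of all genes is not independent support. It includes the 4 genes with the most negative differences of all genes kept, Tmem176b, Tmem176a, Nos2 and Lcn2. The Tmem176 pair is better known from dendritic cells than as NF-kB targets. The inhibitors that NF-kB itself induces were lower: Nfkbia (IkB-alpha) was at 96.9 FPKM in AOC3 and 34.5 FPKM in AOC3-LN, and Nfkbie (IkB-epsilon) at 8.07 and 1.01 FPKM. Birc3, an apoptosis inhibitor and ubiquitin ligase of the pathway, was at 8.21 and 1.36 FPKM, and the RNase Zc3h12a at 9.55 and 3.08 FPKM. Tnf was at 2.23 and 0.324 FPKM, and Icam1, a leukocyte adhesion ligand, at 1.79 and 0.377 FPKM. The subunits themselves differed less: Rela was at 45.6 and 53.5 FPKM, Nfkb2 at 29.8 and 27.0 FPKM, and Nfkb1 at 35.8 and 19.2 FPKM, a difference of -0.86. Tnfaip3, another induced inhibitor, was near level at 9.72 and 7.85 FPKM, and Sod2 was at 66.8 and 76.2 FPKM. Of 4 complement genes kept, C3, the central complement protein, was at 42.2 and 8.01 FPKM, and Clu, the chaperone clusterin, at 96.5 and 25.5 FPKM. In mouse 11 the NF-kB list had a median of -0.31.

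Chemokines had a median of -1.32, which was 0 when members under 1 FPKM in both lines were included. Of 13 kept, 8 passed 2-fold down and 2 up, against 3.37% and 1.1% of all genes kept. After Ccl2, the neutrophil chemokines Cxcl5 (27.3 FPKM in AOC3 and 6.15 in AOC3-LN), Cxcl1 (313 and 125 FPKM) and Cxcl3 (3.93 and 1.37 FPKM) were lower, and as related copies they may share reads. Cxcl10, an interferon-induced attractant of T cells, was at 3.29 and 0.178 FPKM. Ccl20, which draws CCR6-bearing cells, was at 8.26 and 1.92 FPKM, Cx3cl1, or fractalkine, lower by a log2(FPKM + 1) difference of -1.47, and Cxcl14 was at 3.04 and 0.401 FPKM. Against these, Ppbp was higher as described above, and Ccl27a, an epithelial attractant of skin-homing T cells, was at 4.23 and 11.3 FPKM. Ppbp, a CXCR2 ligand like Cxcl1 and Cxcl5, thus stood opposite to its relatives: in AOC3-LN it was at 256 FPKM beside 125 FPKM for Cxcl1. In mouse 11 Ppbp was at 103 FPKM in AOC11 and 25.7 FPKM in AOC11-LN, the reverse order.

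NF-kB elements, searched as GGGA, any 2 bases, TTCC on either strand, lay before several of these genes. The element was in 1.36% of all windows and in 1.47% of those of genes kept. It was in 3 of 10 chemokine windows and in 2 of 20 windows of the NF-kB and acute-phase list. Among lower genes 11 of 303 windows (3.63%) held it, and among higher genes 1 of 93 (1.08%). The windows of Nfkbia, Csf1, Cxcl10 and Cxcl1 follow, from the same 250 bases. Capitals mark the NF-kB element and, in Cxcl10, also the interferon-stimulated response element, which is the first of its capital runs.
Nfkbia (chr12:55492648-55492897, minus strand): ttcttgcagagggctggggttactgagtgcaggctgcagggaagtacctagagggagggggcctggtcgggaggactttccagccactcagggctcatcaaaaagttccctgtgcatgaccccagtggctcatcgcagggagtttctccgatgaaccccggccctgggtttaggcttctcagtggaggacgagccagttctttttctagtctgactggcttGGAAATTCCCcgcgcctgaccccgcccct
Csf1 (chr3:107760470-107760719, minus strand): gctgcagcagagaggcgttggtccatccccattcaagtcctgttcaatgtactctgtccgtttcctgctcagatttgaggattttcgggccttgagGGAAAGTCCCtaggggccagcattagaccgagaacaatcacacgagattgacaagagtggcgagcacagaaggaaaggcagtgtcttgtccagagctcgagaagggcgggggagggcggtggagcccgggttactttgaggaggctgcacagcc
Cxcl10 (chr5:92348890-92349139, minus strand): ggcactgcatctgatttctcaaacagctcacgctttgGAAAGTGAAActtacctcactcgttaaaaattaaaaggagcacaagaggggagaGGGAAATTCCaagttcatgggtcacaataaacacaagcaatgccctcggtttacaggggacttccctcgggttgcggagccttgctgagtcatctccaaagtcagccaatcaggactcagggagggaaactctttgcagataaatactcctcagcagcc
Cxcl1 (chr5:90890995-90891244, plus strand): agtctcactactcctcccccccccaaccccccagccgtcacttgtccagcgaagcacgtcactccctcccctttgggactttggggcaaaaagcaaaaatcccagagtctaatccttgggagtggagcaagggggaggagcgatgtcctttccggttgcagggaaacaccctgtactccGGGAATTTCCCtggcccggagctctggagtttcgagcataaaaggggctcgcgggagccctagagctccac

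In Cxcl10 the interferon-stimulated response element begins 213 bases and the NF-kB element 159 bases before the start. Ppbp, Lcn2 and C3 held none of the 3 elements in their windows.

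Cytokines divided by member. Of 14 kept, 2 were past 2-fold up and 3 down, against 1.1% and 3.37% of all genes kept, and the median was 0.05. Csf1 (chr3:107741048-107760469), the macrophage growth factor, was at 174 FPKM in AOC3 and 48.7 FPKM in AOC3-LN, and Il18 at 1.35 and 0.0646 FPKM. Csf2, or GM-CSF, was at 6.48 and 18.4 FPKM, 2.84-fold (2.32 to 3.48), and Clcf1, a ligand of the IL-6 family, at 25.4 and 78.5 FPKM. The most abundant cytokines were close to level, with Il24 at 164 and 195 FPKM and Il1a at 173 and 136 FPKM. In mouse 11 Csf1 had the same direction, at 211 and 81.5 FPKM, and Csf2 the opposite one, at 7.26 and 1.30 FPKM.

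The cyclooxygenases, which start prostaglandin synthesis, differed in opposite directions. Ptgs1, the constitutive form, was at 29.4 FPKM in AOC3 and 3.92 FPKM in AOC3-LN, a difference of -2.63, while Ptgs2, the inducible form, went from 4.91 to 53.2 FPKM. Ptges, the inducible prostaglandin E synthase that follows them, was at 25.2 and 6.89 FPKM. The other synthases Ptges2 (16.9 and 17.8 FPKM) and Ptges3 (269 and 249 FPKM) were level, as was the transporter Slco2a1 (68.9 and 65.3 FPKM). In mouse 11 Ptgs2 was at 52.0 FPKM in AOC11 and 4.95 FPKM in AOC11-LN, nearly the mirror image, and Ptges was at 1.63 and 14.2 FPKM.

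Genes of the EGF family list, ligands and receptors together, were more often higher than lower, though few passed 2-fold. Of 14 genes kept, 2 were past 2-fold up and none down. In AOC3-LN 9 of the 14 had a higher and 5 a lower value, and the median was 0.60. Over all genes kept, 1.1% were higher and 3.37% lower past 2-fold. Areg (chr5:91139599-91148432), amphiregulin, was at 44.6 and 93.4 FPKM, 2.09-fold (1.97 to 2.23), and Nrg1, neuregulin-1, at 10.7 and 24.1 FPKM. Hbegf (94.8 and 156 FPKM), Ereg (5.27 and 8.64 FPKM), Btc (1.52 and 3.35 FPKM) and Epgn (0.743 and 2.33 FPKM) were higher without passing. The receptors were not: Egfr was at 15.5 and 11.3 FPKM, Erbb2 at 12.4 and 12.3 FPKM and Erbb3 at 12.6 and 11.6 FPKM. Genes that ERK signalling induces had a median of 0.34, with 22 of 27 higher in AOC3-LN, 4 past 2-fold up and none down. Dusp1, a MAP kinase phosphatase, was at 8.13 and 35.8 FPKM, Egr1 at 3.63 and 9.81 FPKM, Fosl1 at 39.0 and 84.1 FPKM and Dusp5 at 30.7 and 64.2 FPKM. The common ERK readouts Dusp6 (83.3 and 97.3 FPKM), Spry2 (13.4 and 14.6 FPKM) and Myc (164 and 157 FPKM) were near level. In mouse 11 both lists had medians below 0, at -0.22 for EGF family genes and -0.21 for ERK output.

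**Figure D4:**
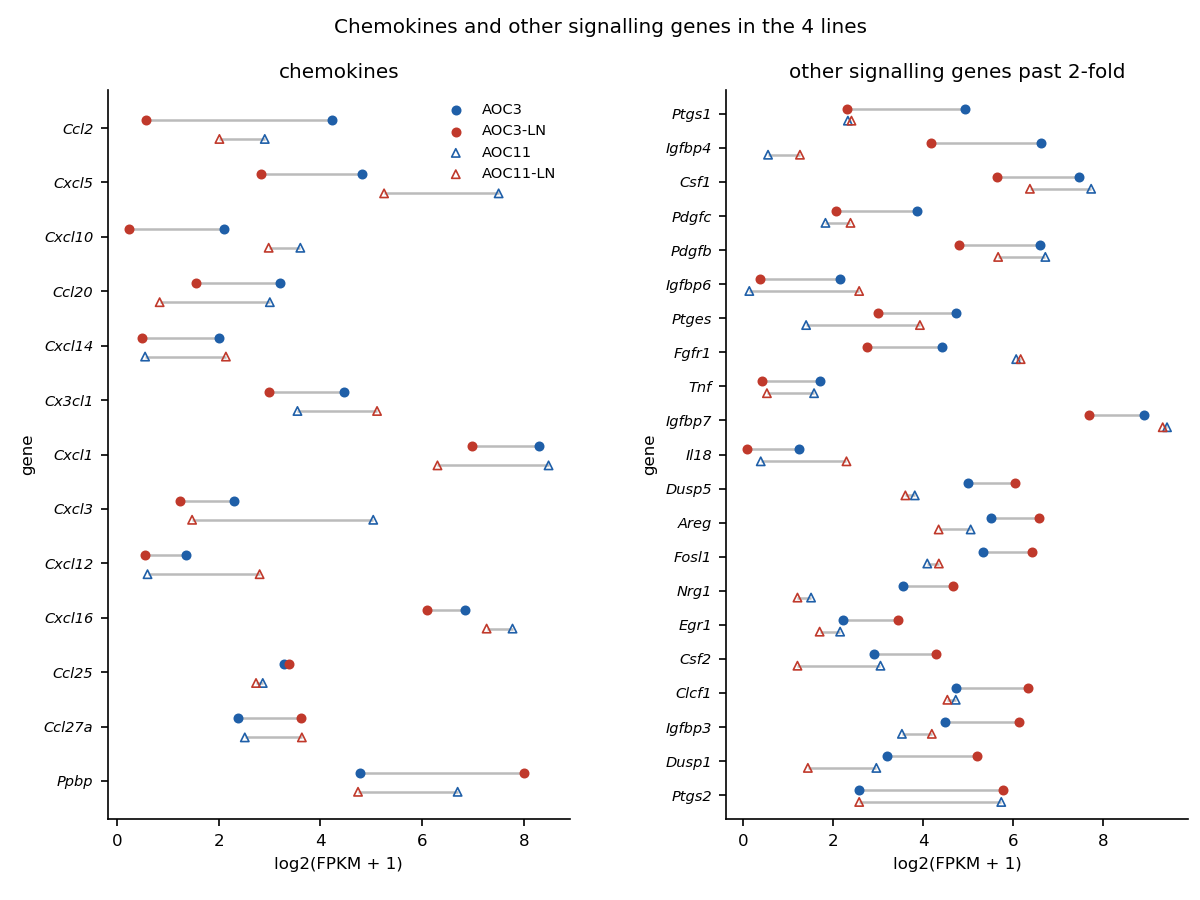
Chemokines kept (left) and the cytokine, prostaglandin, EGF family, ERK output and growth factor genes past 2-fold in mouse 3 (right), with log2(FPKM + 1) on the horizontal axis and symbols for the 4 lines as in the legend. Ppbp and Ptgs2 run to the right from AOC3 to AOC3-LN and to the left from AOC11 to AOC11-LN.

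Other growth factors and their binding proteins were mostly lower. Of 16 kept, 6 were past 2-fold down and 1 up, against 3.37% and 1.1% of all genes kept. Igfbp4, which sequesters insulin-like growth factors, was at 97.4 FPKM in AOC3 and 16.9 FPKM in AOC3-LN, Igfbp6 at 3.44 and 0.295 FPKM and Igfbp7 at 478 and 205 FPKM. Igfbp3 was the exception, at 21.4 and 68.5 FPKM. The platelet-derived growth factors Pdgfb (94.9 and 26.8 FPKM) and Pdgfc (13.6 and 3.17 FPKM) and the receptor Fgfr1 (20.3 and 5.71 FPKM) were lower.

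Of 14 genes kept that are linked to node homing and vessel growth, 5 were past 2-fold down and none up. Over all genes kept, 3.37% were lower and 1.1% higher past 2-fold. In AOC3-LN 10 of the 14 had a lower and 4 a higher value, and the median was -0.68. With members under 1 FPKM included the median was -0.01. Vegfc, the main growth factor of lymphatic vessels, was at 5.21 and 1.28 FPKM, and its receptor Flt4 at 12.9 and 2.88 FPKM. Pgf was at 5.54 and 1.73 FPKM, Angptl4 at 3.88 and 1.29 FPKM and Sema3f at 51.9 and 24.2 FPKM. Vegfa, the main growth factor of blood vessels, was at 104 and 77.0 FPKM and did not pass. Pdpn, podoplanin, was at 18.2 and 31.2 FPKM, also without passing. The chemokine receptors Ccr7 and Cxcr4, which guide cells to nodes, were under 1 FPKM in both lines and were not kept.

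Keratins differed by member. Besides Krt19, the wound-associated Krt6a (22.9 and 81.1 FPKM) and Krt6b (2.94 and 10.8 FPKM) were higher in AOC3-LN, and since they are close copies, and Gm49428 lies antisense to Krt6a, their values are less certain. Krt7 was lower at 13.0 and 5.91 FPKM, and Krt8 (815 and 1078 FPKM) and Krt18 (1307 and 1322 FPKM), the most abundant pair, were near level. Among 27 junction genes, Cdh3 (P-cadherin; 57.8 and 25.9 FPKM), Dsg2 (16.7 and 7.34 FPKM) and Cldn1 (2.75 and 0.788 FPKM) were past 2-fold down and Cldn6 (2.79 and 7.79 FPKM) up. In the mesenchymal list 4 of 17 genes were past 2-fold down and 1 up, against 3.37% and 1.1% of all genes kept, while Vim (122 and 118 FPKM) and Fn1 (268 and 259 FPKM) were near equal. Of its members Lox, Loxl2, Snai1 and Sparc were past 2-fold down and Spp1, osteopontin, up at 98.3 and 215 FPKM. Snai1, a repressor of E-cadherin, was at 6.25 and 2.41 FPKM. Of 14 squamous transcription factors, Klf4 (8.09 and 17.7 FPKM) was the 1 past 2-fold. The junction and transcription factor counts also stand beside 3.37% of all genes kept that were lower and 1.1% that were higher.

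Of 23 matrix proteases and inhibitors kept, 4 were past 2-fold up and 2 down, against 1.1% and 3.37% of all genes kept. Mmp9 was among the lower and Serpinb2 among the higher genes. A block of kallikreins on chromosome 7, between 43781035 and 43832030, was higher together: Klk10 at 8.63 and 27.6 FPKM, Klk9 at 1.49 and 6.15 FPKM, Klk8 at 180 and 411 FPKM, and Klk6 as above. Such proteases are made by differentiating squamous epithelium. In mouse 11 Klk8 was at 2.46 and 3.53 FPKM, Klk10 at 3.11 and 0.913 FPKM, Klk9 at 0.0246 and 0.164 FPKM, and Klk6 was listed at 0 and at 0.263 FPKM.

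In the Wnt list, 5 of 22 genes were past 2-fold down and 1 up, against 3.37% and 1.1% of all genes kept. In AOC3-LN 17 of the 22 had a lower value, and the median was -0.47. Over members at 1 FPKM or more in both lines the median was -0.03, and with no filter on low values -0.11. The ligands Wnt10b (39.2 and 6.82 FPKM) and Wnt10a (19.6 and 7.45 FPKM) and the receptors Fzd7 (2.80 and 0.468 FPKM) and Fzd2 (4.99 and 1.65 FPKM) were lower, as was the secreted Dkk3 (2.52 and 0.121 FPKM), while Nkd2 was higher. Of 31 TGF-beta and BMP genes, Ltbp2 and Bmp4 (2.10 and 0.468 FPKM) were lower and Bmp6 (1.33 and 7.61 FPKM) higher. In the Notch list the receptor Notch1 (2.66 and 0.777 FPKM) was lower and the ligand Dll4 (1.16 and 3.76 FPKM) higher. None of the 6 Hedgehog genes kept passed 2-fold, with Ptch1 at 6.15 and 5.85 FPKM.

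Growth and metabolism were largely level between the lines. None of the 56 cell cycle genes kept passed 2-fold, and their median was -0.12. The proliferation marker Mki67 was at 43.6 FPKM in AOC3 and 39.5 FPKM in AOC3-LN. None of 30 p53 targets, 34 cholesterol and fatty acid genes or 38 amino acid and endoplasmic reticulum stress genes passed either. In all, 6 of the 38 lists, with 166 members, had no member past 2-fold. Of 34 glycolysis and hypoxia genes, 4 were lower: the lactate exporter Slc16a3 (19.7 and 2.78 FPKM), the lactate dehydrogenase chain Ldhb (5.81 and 0.737 FPKM), Pfkp (20.7 and 6.01 FPKM) and Aldoc (10.2 and 3.21 FPKM). The antioxidant enzymes Nqo1 (7.04 and 1.79 FPKM) and Gsta4 (6.77 and 1.55 FPKM) were the 2 of 35 Nrf2 and glutathione genes past 2-fold. Both counts stand beside 3.37% of all genes kept that were lower past 2-fold.

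**Figure D5:**
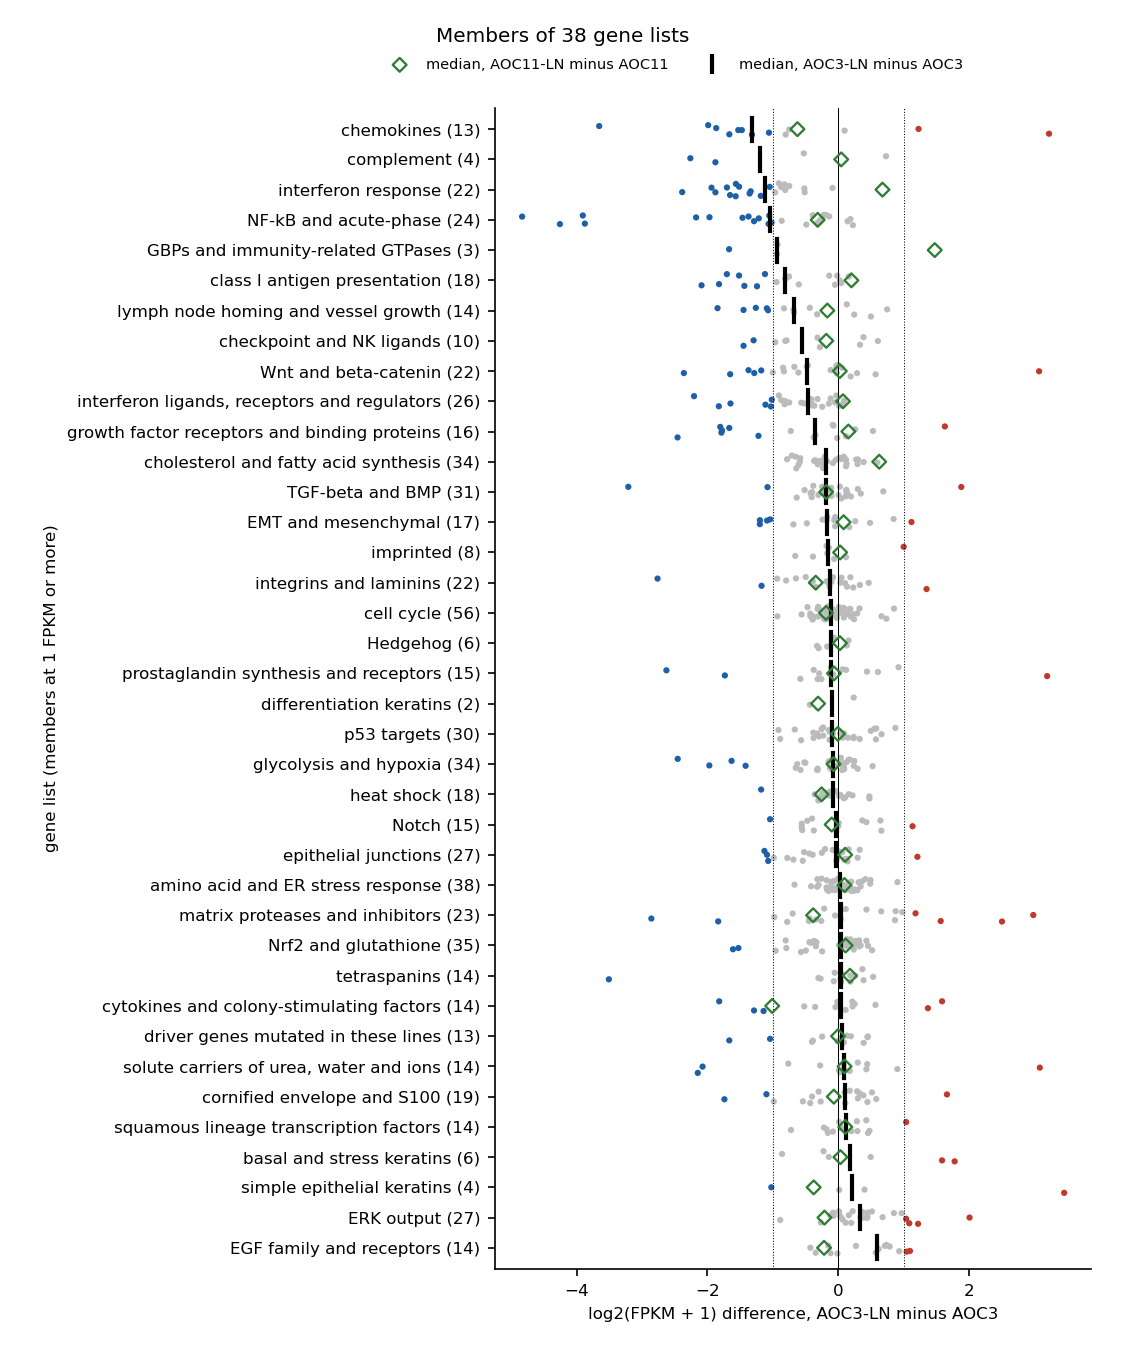
Each point is a gene of 1 of the 38 lists, placed by its log2(FPKM + 1) difference between AOC3-LN and AOC3, with blue below -1 and red above 1. Black bars are list medians in mouse 3 and green diamonds those of AOC11-LN minus AOC11. The chemokine, complement, interferon response and NF-kB medians lie left of -1, the EGF family and ERK output medians lie right of 0, and most other medians are close to 0.

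The genes past 2-fold in mouse 3 were also read in mouse 11, where 1.59% of all genes kept were lower and 4.39% higher past 2-fold. Of the 430 genes lower in AOC3-LN, 24 (5.58%) were also past 2-fold lower in AOC11-LN and 92 (21.4%) were past it higher. Of the 140 genes higher in AOC3-LN, 10 (7.14%) were higher in AOC11-LN and 14 (10%) lower. Genes lower in both include Lcn2 (33.2 FPKM in AOC11 and 10.3 in AOC11-LN), Slpi (44.3 and 12.2 FPKM), Cxcl1 (357 and 77.8 FPKM) and Csf1. Those that went the other way in mouse 11 include Ptgs2, Ppbp and Unc93b1 (0.595 and 6.42 FPKM). Because each mouse gave 1 pair of libraries, shared and opposite genes are counts of this series only.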

How the data were processed

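RNA from cultured cells of 4 mouse lines was sequenced once each (stranded mRNA libraries, paired reads), and AOC3 and AOC3-LN were compared. The authors trimmed reads with Trim Galore, mapped them to mm10 with TopHat2 and deposited FPKM values made with Cufflinks on GENCODE release M21; tool versions and the strand setting were not given in the sources used here. The study's methods name log2 transformation and quantile normalization, but the deposited FPKM values are linear and not quantile-normalized. Differences of log2(FPKM + 1) were computed with python 3.11.15, pandas 2.3.3 and numpy 2.4.6 for genes at 1 FPKM or more in either line with a longest transcript of 200 bases or more. With 1 library per line no statistical test was made. Fragment depth was inferred from FPKM steps of genes with a single transcript over 800 bases, with scipy 1.17.1 for intervals, and was tested on simulated data. Gene names and positions are those of the mm10 annotation, and promoter sequences are RefSeq on GRCm38.p6, matched by symbol for 8853 of 12754 symbols. Text names the 15 protein-coding genes with the largest differences in each direction, list members with the largest differences past 2-fold, central members of each list, and extremes; other genes in the closing section were chosen after their values were seen. Members and the 38 gene lists were chosen with earlier results of these data known. Alternatives changed scaling, pseudocount, filters, transcript length, gene type and threshold. Some list symbols were not analysed here, and a few single-gene results are not reported here.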

Additional observations from a re-analysis of the deposited data

Results flagged for a closer look

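In the following cases AOC3-LN differed from AOC3 in one direction and AOC11-LN from AOC11 in the other. With 1 library per line the difference between the mice was not tested. The interferon response list had a median log2(FPKM + 1) difference of -1.12 in mouse 3 and 0.68 in mouse 11, and the 3 guanylate-binding protein and immunity-related GTPase genes had medians of -0.93 and 1.48. Among genes lower in AOC3-LN, Gxylt2 had differences of -2.93 in mouse 3 and 1.44 in mouse 11. Unc93b1 had differences of -2.90 and 2.22, and Aim2 of -2.80 and 1.78. Among genes higher in AOC3-LN, Ppbp had differences of 3.23 in mouse 3 and -1.96 in mouse 11. Ptgs2 had differences of 3.20 and -3.16, and the multicopy gene Prl2c2 of 2.15 and -2.21.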

How the results depend on the processing

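No paired analysis was possible because each line has 1 library, and for the same reason no library could be left out. The 30 genes with the largest differences kept their direction under the other scalings and pseudocounts, with 100 values within 1.5 times the reported one and 20 beyond. Over list medians 278 values stayed within 1.5 times and 101 did not. Of these, 12 changed sign, in 9 lists whose median was at most 0.18 in size: for basal and stress keratins, 0.18 became -0.14 at 5 FPKM or more. With a pseudocount of 0.1 the counts were 264 higher and 755 lower and the interferon response median was -1.79. With a pseudocount of 5 they were 56 and 124, and the medians were -0.56 for the interferon response, -0.51 for class I antigen presentation, -0.42 for NF-kB and acute-phase genes, -0.68 for chemokines, 0.34 for the EGF family and 0.22 for ERK output. With no filter on low values the medians were -0.51 for the interferon response, -0.44 for NF-kB and acute-phase genes, 0 for chemokines, 0.14 for the EGF family and 0.21 for ERK output, since undetected members then enter at or near 0. Requiring 5 FPKM left 267 lower genes. Requiring 1 FPKM in both lines left 270, with medians of -0.44 for NF-kB and acute-phase genes and 0.22 for ERK output. Without the length minimum 249 genes were higher. At 1.5-fold the counts were 471 higher and 1112 lower, and at 4-fold 22 and 55. Differences of genes with few fragments are limited by depth, and differences between cultures of the same line were not measured.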

Other observations

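Among genes above 100 FPKM in either line, 29 were past 2-fold, 10 higher and 19 lower in AOC3-LN. The genes named in this section were chosen after their values were seen. Lgals1, the lectin galectin-1, was at 2510 FPKM in AOC3 and 1004 FPKM in AOC3-LN, and Tmsb4x, the actin-binding thymosin beta-4, at 595 and 1720 FPKM. The metallothioneins Mt1 (224 and 74.7 FPKM) and Mt2 (206 and 35.0 FPKM), which bind zinc and copper and resemble each other in sequence, were lower, as was the zinc importer Slc39a4 (28.3 and 3.96 FPKM). In mouse 11 Mt2 was at 16.1 FPKM in AOC11 and 60.7 FPKM in AOC11-LN. Rhoc, a small GTPase of the cytoskeleton, was at 148 and 34.5 FPKM, and Procr, the protein C receptor, at 188 and 437 FPKM.

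Tigit, an inhibitory receptor known from T and natural killer cells, was at 18.3 FPKM in AOC3 and 83.4 FPKM in AOC3-LN, 4.56-fold (4.12 to 5.06, counting error only). The T cell markers were all under 1 FPKM in both lines. In mouse 11 Tigit was at 27.1 FPKM in AOC11 and 15.7 FPKM in AOC11-LN.

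Genes past 2-fold in the same direction and within 100 kb of each other formed 7 runs of higher and 47 runs of lower genes, 119 genes in all, and 9 runs held 3 or more. Besides the kallikreins, these include Tcirg1, Aldh3b1, Unc93b1 and Acy3 on chromosome 19, all lower. Lower genes were the more numerous, 430 against 140, and the number of runs to expect from that was not computed. Some runs hold genes that overlap, such as Tmem176b and Tmem176a, or that share sequence, such as Gm42429 and Gm42427. Median differences were -0.20 on chromosome 1, -0.23 on chromosome 3, -0.21 on chromosome 9, -0.22 on chromosome 14 and -0.18 on chromosome 15, and between -0.04 and 0.08 on the other autosomes and X. DNA copy number was not measured in these files, and its part in these medians was not tested.

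A set of 10 non-coding genes, among them Gm46223 and Gm42427, was lower in AOC3-LN, with differences from -3.23 to -1.26. Of their 45 pairs, 25 share 90% or more identity over at least 200 bases, each gene with at least 1 other, and their separate values are uncertain.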
